A study of Mus musculus with 8 samples.

Results

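Transcript levels were examined for 10 genes of the Notch pathway, out of 49315 genes counted, in 7 sorted bone marrow stromal populations and 1 marrow sample labelled as input. The genes were taken by name as members of the pathway, with no threshold on their values: the receptors Notch1, Notch2 and Notch4, the ligands Jag1, Jag2, Dll1 and Dll4, and the targets Hes1, Hey1 and Heyl. RNA-seq had been done on marrow of mice that the sample labels give as wild-type C57BL/6J, 6 weeks old, to describe subpopulations of mesenchymal stromal cells that had first been recognised in single cells. Each population, and the input, was represented by 1 library; how the input was prepared, and whether a library pooled several animals, was not given in the sources used here.

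The sorted cells had been gated as negative for CD31, CD45 and Ter119, the surface antigens of endothelial, blood and erythroid cells, and were then divided by other antigens. As read from the study's sort plots, cluster 1 was CD24- Sca-1+ CD39+, cluster 2 was Ly-6C- CD24- CD39-, cluster 3 was Ly-6C+ CD24+ and negative for CD39 or CD54, and cluster 4 was Ly-6C- CD54+ CD24-. Cluster 5 was CD54+ CD121b- and negative for CD24 or Ly-6C, cluster 6 was CD24+ Sca-1- CD39-, and cluster 7 was CD54- Sca-1+ and negative for CD24 or Ly-6C. The labels themselves gave the cluster number and no gate. Total gene counts were 24205863, 25349917, 27102715, 32549319, 12833648, 31669132 and 33238133 in clusters 1 to 7 in turn, and 20162876 in the input.

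Notch receptors sit in the cell membrane and are activated by ligands of the Jagged and Delta-like families on a neighbouring cell. Ligand binding allows a metalloprotease and then the gamma-secretase complex to cut the receptor, and the freed intracellular domain enters the nucleus, binds the DNA-binding protein RBPJ and switches on genes of the Hes and Hey families of transcriptional repressors. In bone marrow the pathway is known for its part in stromal and osteoblast differentiation, in vessels, and in the niche of blood progenitors.

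Levels are given as RPKM, the count of a gene divided by its exon length and by the library total in the usual units, so that genes of different length can be set side by side. Intervals are exact 95% Poisson intervals of a count, or exact conditional binomial (Clopper-Pearson) intervals of a ratio of counts, and cover counting error only. With 1 library per population the variation between sorts was not measured, so no test between populations was possible and every comparison is between libraries. In such bulk samples, fewer cells of a type and less RNA per cell cannot be told apart.

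The libraries differed in ways that bear on all 10 genes. Counts on Lars2 and Rn18s-rs5 and on the microRNA locus mmu-mir-689-2 made up 34.8% of the cluster 5 library and 10.4% of cluster 2, against 0.188% to 1.91% in the other libraries. Levels were therefore also computed with TMM factors, a scaling that rests on the bulk of the genes. TMM scaling moved the median log2(RPKM + 1) over the tested genes upward by 0.35 for cluster 5 and 0.30 for cluster 6. The shift was -0.12 for cluster 1 and -0.57 for the input, and elsewhere it was -0.04 to 0.03. The stromal markers Pdgfra and Pdgfrb were present in every sorted library, at 4.37 to 28.1 RPKM and 7.18 to 64.5 RPKM. Transcripts of cells that the gate should remove were present as well: S100a9, a neutrophil protein gene, stood at 4834 to 11033 RPKM in the sorted libraries and 14745 in the input, and Ptprc, which encodes CD45, at 1.69 to 9.26 RPKM against 13.5 in the input. Erythroid transcripts went the other way, with a summed level of 689 RPKM in the input, the lowest of the 8 libraries, and up to 68505 in cluster 5. The part of these transcripts in the Notch gene levels was not tested, and the markers given below are a description only. Low values in the input need a separate caution. The 977 olfactory receptor genes, which marrow is not known to use, had a pooled level of 0.622 RPKM, a median of 0.173 and a 90th percentile of 1.87 in the input, whereas their pooled level in the sorted libraries was 0.00252 to 0.054.

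**Figure D1:**
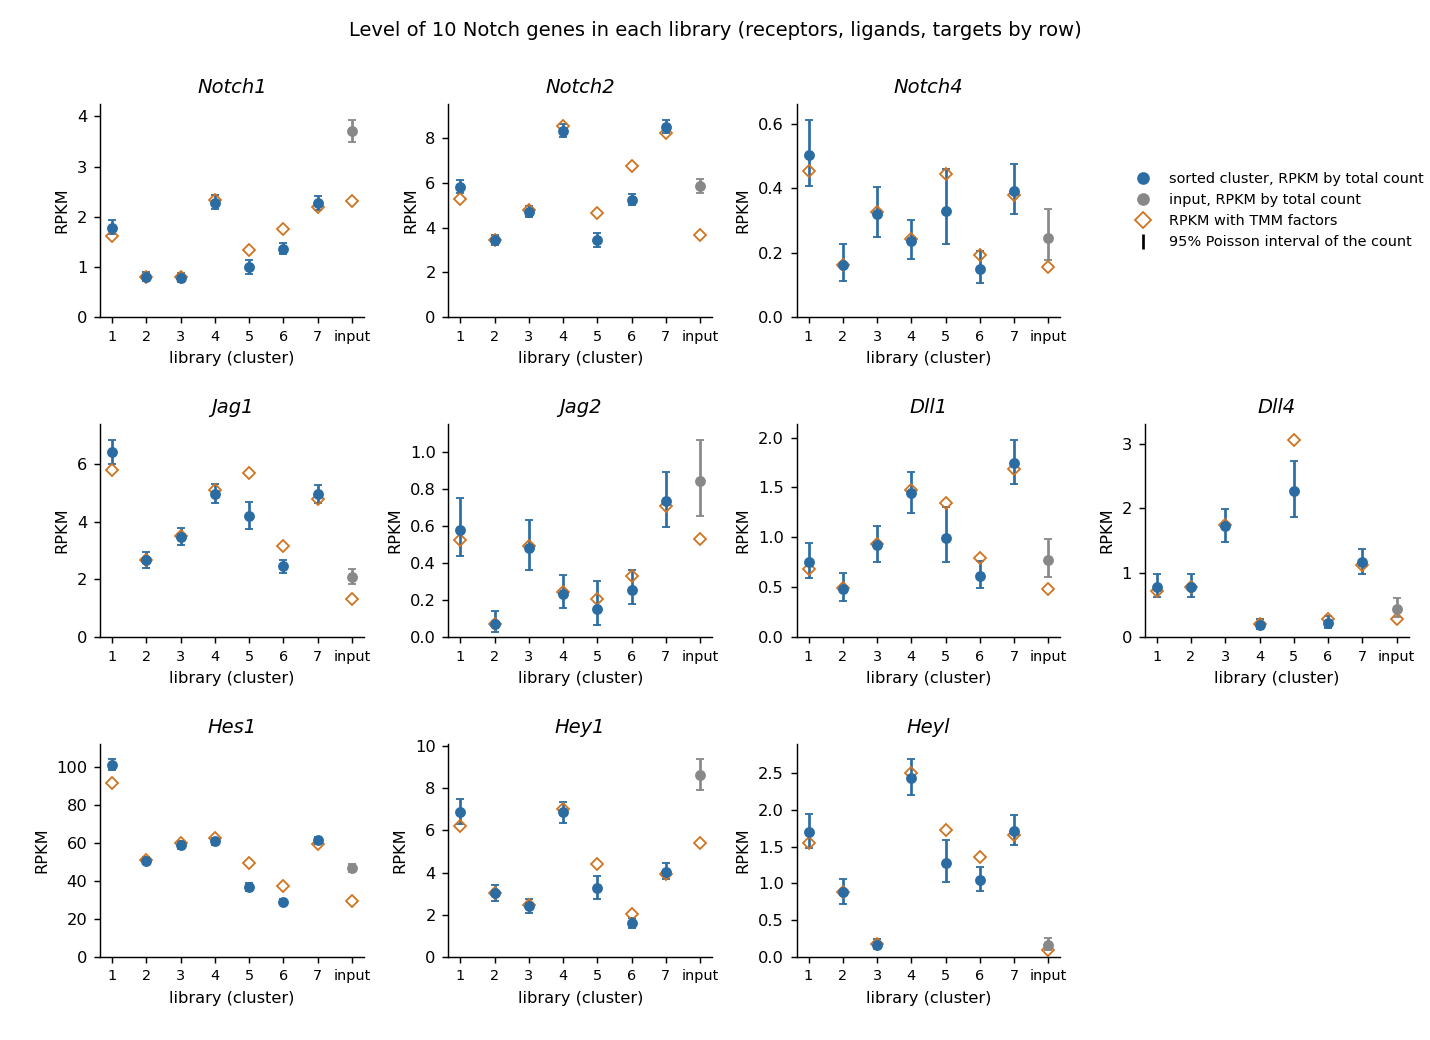
Level of each of the 10 Notch genes (vertical axes, RPKM, each from 0) in clusters 1 to 7 and the input (horizontal axes). Filled circles are RPKM by total count with the 95% Poisson interval of the count, blue for the sorted clusters and grey for the input, and open diamonds are RPKM with TMM factors. Hes1 reaches 101 RPKM in cluster 1, and Dll4 lies between 0.191 in cluster 4 and 2.27 in cluster 5.

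The DNA just before the start site was examined for 7 of the 10 genes, for which RefSeq start sites of assembly GRCm38.p6 were at hand. The sequences before Notch2, Jag1 and Dll4 are shown, the receptor and the ligand with the highest levels in this tissue and the ligand with the widest span between libraries in RPKM + 1. They run 5′ to 3′ along the gene's strand, are cut where an exon of the gene begins, and carry in capitals each match to the GC box GGGCGG or its reverse complement CCGCCC.
Notch2, chr3:98013288-98013526, plus strand: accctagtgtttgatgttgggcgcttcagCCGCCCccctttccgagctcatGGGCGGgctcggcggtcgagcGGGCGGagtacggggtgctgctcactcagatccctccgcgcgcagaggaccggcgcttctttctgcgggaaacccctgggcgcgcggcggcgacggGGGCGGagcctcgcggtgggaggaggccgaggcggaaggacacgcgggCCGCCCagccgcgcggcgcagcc
Jag1, chr2:137116645-137116770, minus strand: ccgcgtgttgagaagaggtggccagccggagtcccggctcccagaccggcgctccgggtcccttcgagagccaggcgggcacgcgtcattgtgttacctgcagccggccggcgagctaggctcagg
Dll4, chr2:119325534-119325783, plus strand: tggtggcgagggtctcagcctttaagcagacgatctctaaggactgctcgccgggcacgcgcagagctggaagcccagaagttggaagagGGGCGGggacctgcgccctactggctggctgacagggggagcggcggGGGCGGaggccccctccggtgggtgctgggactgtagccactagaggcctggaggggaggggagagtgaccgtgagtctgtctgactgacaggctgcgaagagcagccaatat
The GC box, bound by factors of the Sp family, and the core of the RBPJ binding sequence, TGGGAA, were searched on both strands of the 250 bases before each start. A match to one motif cannot overlap a match to the other, but matches to the same motif may overlap, as 2 of the GC boxes before Jag2 do. The GC box was found 5 times each before Notch1, Notch2 and Jag2 and 2 times before Dll4, while 32.7% of 32851 promoter windows of the same length held at least 1. The windows before Jag1, Notch4 and both starts of Dll1 had none. TGGGAA was in none of the 8 windows of these 7 genes and in 21.6% of all windows. Hes1, Hey1 and Heyl had no entry.

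Among the ligands, Jag1 was the most abundant in every library, and Dll4 had the widest span of the 4 over the sorted libraries in RPKM + 1. Jag1 (ENSMUSG00000027276, GRCm38 chr2:137081456-137116644, minus strand) encodes Jagged-1, a ligand known from stromal and endothelial cells. Its level was 6.43, 2.67, 3.47, 4.98, 4.21, 2.45 and 4.96 RPKM in clusters 1 to 7 in turn, and 2.09 in the input. Cluster 1 was highest, clusters 4 and 7 were next and did not differ beyond counting error, and clusters 2 and 6 formed the lower end and did not differ either. Cluster 1 exceeded cluster 6 by 2.62-fold (interval 2.34 to 2.94). With TMM factors cluster 5, at 5.69 RPKM, came next to cluster 1 at 5.82, and cluster 2 was the lowest sorted library at 2.68. Cluster 6 then lay above cluster 2 by 1.18-fold (1.03 to 1.35). Jag1 made up 52.7% to 75.2% of the summed RPKM of the 4 ligands in the sorted libraries and 50.4% in the input. In the input the other ligands were near or below the pooled level of the olfactory receptor genes, so that share is uncertain.

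Jag2 (ENSMUSG00000002799, chr12:112908590-112929495, minus strand), the second Jagged ligand, was low throughout. It stood at 0.581, 0.0681, 0.482, 0.235, 0.154, 0.257 and 0.735 RPKM in clusters 1 to 7 in turn, and 0.844 in the input. Clusters 7, 1 and 3 were the upper group, in which neighbours did not differ beyond counting error, and the lowest value rested on 7 counts in cluster 2. The ratio of cluster 7 to cluster 2 was 10.8, with a wide interval from 5.04 to 27.5. With TMM factors the step from cluster 3 down to cluster 6 was 1.48-fold (0.941 to 2.36) and no longer beyond counting error, so that no 2 neighbours differed. Within a sorted library, where scaling plays no part, Jag1 exceeded Jag2 by 6.75-fold in cluster 7 up to 39.2-fold in cluster 2. In the input the ratio was 2.48 (1.89 to 3.29). There Jag2, at 0.844 RPKM, was near the pooled level of the olfactory receptor genes, 0.622. The input ratio is therefore uncertain beyond its counting interval.

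Dll1 (ENSMUSG00000014773, chr17:15367354-15376872, minus strand) encodes Delta-like 1, a ligand known in the support of lymphoid and myeloid progenitors. Its level was 0.754, 0.486, 0.918, 1.44, 0.997, 0.614 and 1.75 RPKM in clusters 1 to 7 in turn, and 0.776 in the input. Cluster 7 lay above cluster 4 by 1.21-fold (1.00 to 1.47) and cluster 4 above cluster 5 by 1.45-fold (1.07 to 1.99), and further down no pair of neighbours differed beyond counting error. With TMM factors neither of these steps held, at 1.14-fold (0.943 to 1.38) and 1.10-fold (0.808 to 1.51), whereas cluster 5 lay above cluster 3 by 1.44-fold (1.02 to 2.02). Cluster 7 exceeded cluster 2, the lowest sorted library by either scaling, by 3.59-fold (2.65 to 4.95). Of the exon length of Dll1, 20.5% lies opposite a gene on the other strand, ENSMUSG00000097566, which had 135 counts in the input and at most 10 in a sorted library; whether the counting used strand was not given in the sources used here, so the Dll1 level of the input is uncertain.

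Dll4 (ENSMUSG00000027314, chr2:119325784-119335962, plus strand) encodes Delta-like 4, the ligand best known from arterial endothelium and sprouting vessels. It stood at 0.783, 0.778, 1.71, 0.191, 2.27, 0.221 and 1.16 RPKM in clusters 1 to 7 in turn, and 0.438 in the input. Cluster 5 was highest, followed by clusters 3 and 7, each step beyond counting error, and clusters 4 and 6 were lowest and did not differ from each other. The ratio of cluster 5 to cluster 4 was 11.8 (7.56 to 19.2), on 112 and 24 counts. Because cluster 5 was the only library in which Dll4 passed 2 RPKM, its place among the genes above that level rests on that library, the one with the fewest counts. The antisense gene Gm14207 lies over 5.56% of the exon length of Dll4 and had 22 counts in cluster 2, against 76 for Dll4, and at most 9 in any other library.

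The 2 Delta-like ligands did not follow each other. Dll4 exceeded Dll1 in cluster 5 by 2.27-fold (1.63 to 3.20), in cluster 3 by 1.87-fold (1.46 to 2.40) and in cluster 2 by 1.60-fold (1.11 to 2.32), where reads shared with Gm14207 make the value uncertain. The order was the opposite in cluster 4, where the ratio of Dll4 to Dll1 was 0.133 (0.0831 to 0.203), in cluster 6 at 0.361 (0.224 to 0.563) and in cluster 7 at 0.666 (0.540 to 0.820). In cluster 1 the ratio was 1.04 and its interval, 0.743 to 1.45, included equal levels. Each of these ratios was taken within 1 library, so none depends on the scaling between libraries.

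**Figure D2:**
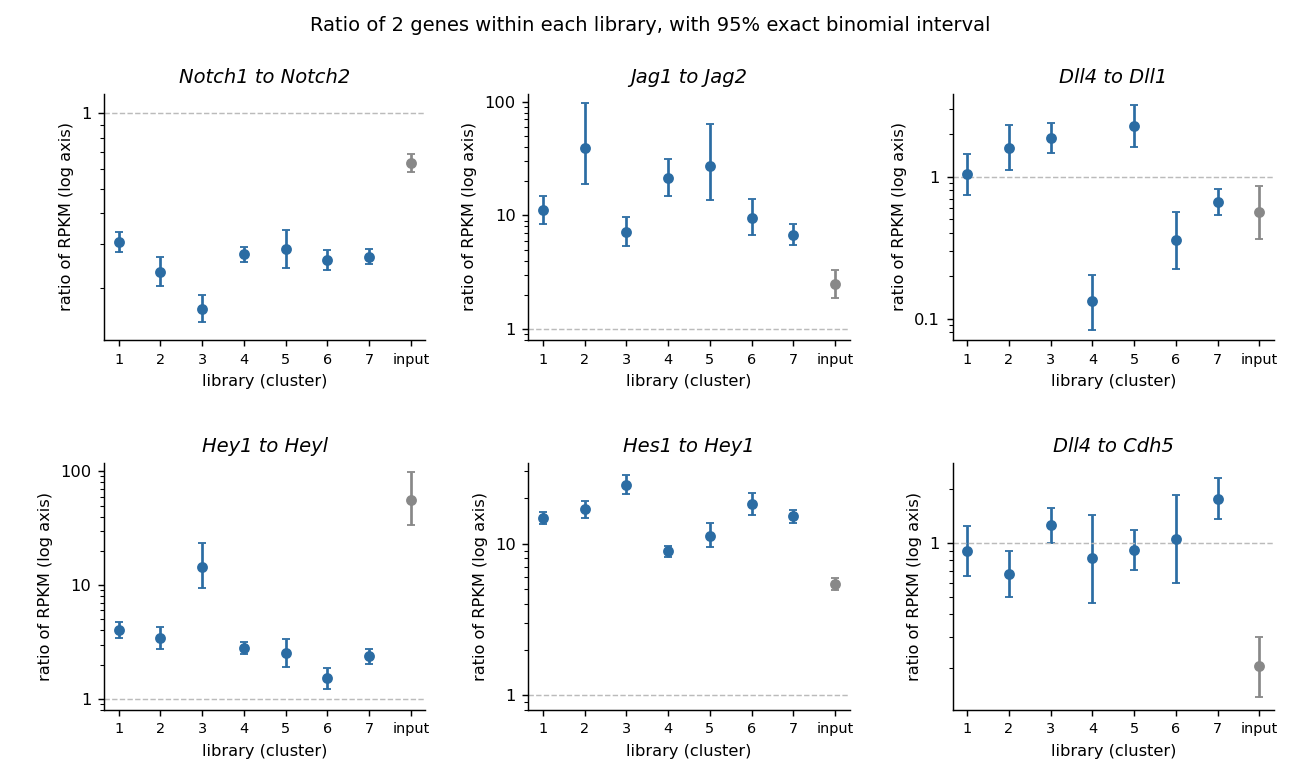
Ratio of the RPKM of 2 genes within each library (vertical axes, logarithmic) for clusters 1 to 7 (blue) and the input (grey), with exact 95% binomial intervals; the dashed line marks equal levels. The ratio of Dll4 to Dll1 runs from 0.133 in cluster 4 to 2.27 in cluster 5, and Notch1 stays below Notch2 in all 8 libraries.

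The level of Dll4 moved with that of endothelial genes. Of 17 endothelial markers, 16 had a positive correlation with Dll4 over the 7 sorted libraries in log2(RPKM + 1) and 10 had r above 0.8, with a median r of 0.82; all points share the same 7 libraries and their depths, and the values are a description. Cdh5, which encodes the endothelial junction protein VE-cadherin, stood at 0.865, 1.15, 1.37, 0.234, 2.48, 0.210 and 0.659 RPKM in clusters 1 to 7 in turn, and 2.14 in the input. It shared with Dll4 the highest sorted library, cluster 5, and the low pair, clusters 4 and 6. Within a sorted library the ratio of Dll4 to Cdh5 lay between 0.674 (0.500 to 0.905) in cluster 2 and 1.77 (1.35 to 2.32) in cluster 7. This pair was chosen after the values were seen, so a narrow span of the ratio follows in part from the choice. The ratio was 0.205 (0.138 to 0.297) in the input. Dll4 there was below the pooled level of the olfactory receptor genes and could not be set apart from that background. The whole marker list summed to 74.4, 24.8, 49.8, 37.3, 42.3, 6.75 and 42.6 RPKM in clusters 1 to 7 in turn, and 57.5 in the input, and none of the 17 genes was at 0 in any library. The sum follows Ramp2, the receptor activity-modifying protein gene that was its most abundant member in all libraries but cluster 5, and Ramp2 had an r of only 0.13 with Dll4. In cluster 5 the most abundant was Cldn5, a tight-junction gene, at 10.3 RPKM. Pecam1, which encodes the CD31 used to remove endothelial cells, stood at 1.31 to 3.84 RPKM in the sorted libraries and 4.08 in the input. The part of endothelial cells in the level of Dll4 was not tested.

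The mean log2(RPKM + 1) of the endothelial list had an r of 0.85 with Dll4 (n = 7 libraries), 0.90 with TMM factors and 0.84 without cluster 5. Among 7461 candidate genes, those most like Dll4 by Pearson r over the sorted libraries were Sox18, a transcription factor gene of endothelium, at 0.97, Podxl, which encodes the surface sialomucin podocalyxin, at 0.96, and Cldn5 at 0.92. Sox18 and Cldn5 also stand on the endothelial list. Podxl passed 2 RPKM only in cluster 5, at 2.06, so it was a candidate only through the library where Dll4 was highest. Dll4 was also correlated with the erythroid list (r = 0.84), whose summed level was 68505 RPKM in cluster 5 and 1591 to 14562 in the other sorted libraries; without cluster 5 that r was 0.70.

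**Figure D3:**
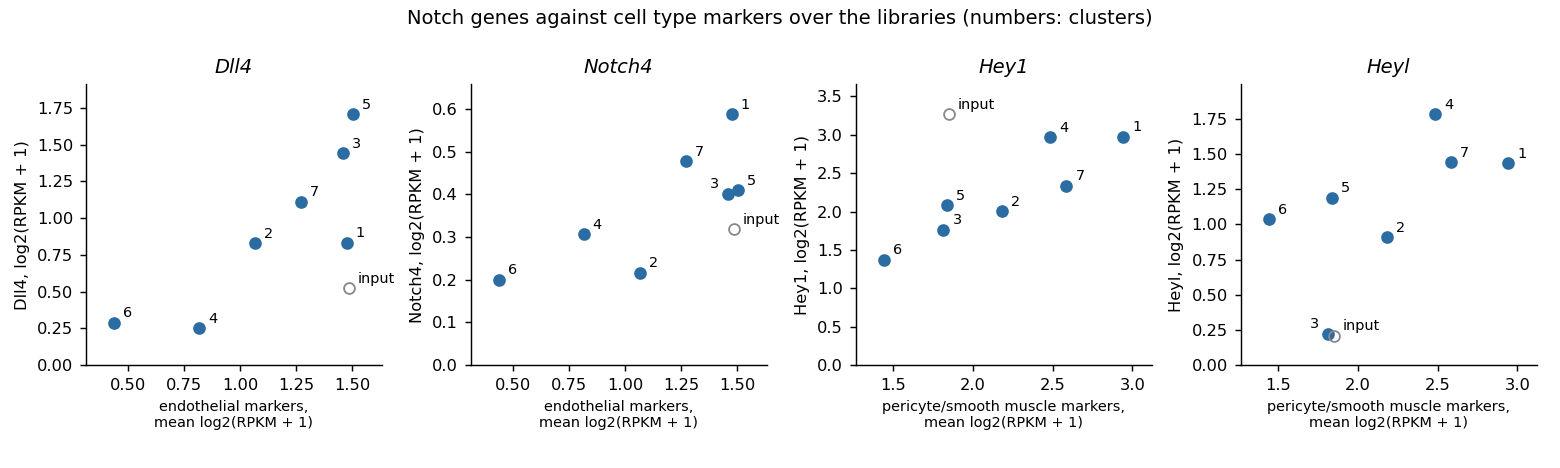
Level of Dll4, Notch4, Hey1 and Heyl as log2(RPKM + 1) (vertical axes) against the mean log2(RPKM + 1) of 17 endothelial markers (first 2 panels) or 10 pericyte and smooth muscle markers (last 2 panels). Filled points are clusters 1 to 7 by number and the open point is the input, which lies off the run of the sorted libraries for Dll4 and Hey1.

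Among the receptors, Notch2 was the most abundant in all 8 libraries, and the sorted libraries kept a like order of Notch2, Notch1 and Notch4. Notch2 (ENSMUSG00000027878, chr3:98013527-98150361, plus strand), known in the marrow for its part in B cell and osteoclast development, stood at 5.84, 3.45, 4.72, 8.34, 3.44, 5.24 and 8.52 RPKM in clusters 1 to 7 in turn, and 5.86 in the input. Clusters 7 and 4 were highest and did not differ beyond counting error, and clusters 2 and 5 were lowest and did not differ either. From cluster 5 to cluster 7 the level differed by 2.48-fold (2.25 to 2.73). With TMM factors the ends changed to cluster 4, at 8.55 RPKM, and cluster 2, at 3.46, and cluster 6, at 6.76, came next after clusters 4 and 7. Notch2 made up 71.9% to 81.0% of the summed RPKM of the 3 receptors in the sorted libraries and 59.8% in the input. A gene annotated over 5.02% of its exon length, ENSMUSG00000106427, had 385 counts in the input, so a part of the 1275 input counts of Notch2 may be shared.

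Notch1 (ENSMUSG00000026923, chr2:26457903-26516663, minus strand), the receptor that directs T cell fate, stood at 1.79, 0.804, 0.783, 2.28, 0.991, 1.36 and 2.27 RPKM in clusters 1 to 7 in turn, and 3.70 in the input. As for Notch2, clusters 4 and 7 were the highest of the sorted libraries and indistinguishable by their counts, and the lowest pair, clusters 2 and 3, did not differ either. The ratio of cluster 4 to cluster 3 was 2.91 (2.56 to 3.32). The input lay above cluster 4 by 1.62-fold (1.49 to 1.77), but with TMM factors the input, at 2.32 RPKM, came level with cluster 4 at 2.34. The exons of Notch1 share 7.50% of their length with 0610009E02Rik on the other strand, which had 26 to 58 counts per library against 181 or more for Notch1.

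Within a library the ratio of Notch1 to Notch2 was 0.306, 0.233, 0.166, 0.274, 0.288, 0.260 and 0.267 in clusters 1 to 7 in turn. Cluster 3 was the low one. The input was apart from all of these at 0.631 (0.581 to 0.685). Over the sorted libraries Notch1 and Notch2 had the highest correlation of any pair of the 10 genes, with r = 0.92 by either scaling (n = 7).

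Notch4 (ENSMUSG00000015468, chr17:34564268-34588503, plus strand), a receptor known mainly from endothelium, was the least abundant of the 3, at 0.502, 0.161, 0.320, 0.236, 0.329, 0.149 and 0.392 RPKM in clusters 1 to 7 in turn, and 0.246 in the input. No 2 neighbours in this order differed beyond counting error, whereas libraries further apart did, the ends having a ratio of cluster 1 to cluster 6 of 3.37 (2.30 to 5.05) on 98 and 38 counts. Its r with the endothelial list was 0.78 (0.80 with TMM factors), and with Jag1 it was 0.86. All 17 endothelial markers had a positive r with Notch4, but only 3 had r above 0.8, and the median was 0.61. The correlation was not particular to that list. With a list of stromal markers that includes Pdgfra and Pdgfrb, r was 0.73, and with the pericyte and smooth muscle list it was 0.66. In the input, Notch4 was below the pooled level of the olfactory receptor genes, so its expression there could not be set apart from that background.

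Among the targets, Hes1 was by far the most abundant, and cluster 6 was the lowest sorted library for Hes1 and Hey1. Hes1 (ENSMUSG00000022528, chr16:30064384-30067796, plus strand) encodes a repressor that Notch and several other signals induce within minutes. It stood at 101, 50.7, 58.7, 60.9, 36.7, 28.9 and 61.4 RPKM in clusters 1 to 7 in turn, and 46.9 in the input. Cluster 1 exceeded the next library, cluster 7, by 1.65-fold (1.58 to 1.72), whereas clusters 7, 4 and 3 were neighbours that did not differ beyond counting error. Between cluster 1 and cluster 6 the ratio was 3.50 (3.32 to 3.69). With TMM factors cluster 1 stayed highest at 91.6 RPKM and cluster 6 lowest of the sorted libraries at 37.2, and the input fell below it to 29.3.

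The level of Hes1 moved with that of immediate early genes, the transcripts that cells make within minutes of a stimulus or of handling. All 9 genes on that list had a positive correlation with Hes1 over the sorted libraries, with a median r of 0.73. This was not particular to Hes1: all 9 were also positive for Notch1 (median r 0.71), Notch2 (0.78), Jag1 (0.66) and Hey1 (0.62), while none was for Dll4 (-0.28). The list summed to 6818, 3177, 4349, 6089, 2091, 2777 and 6890 RPKM in clusters 1 to 7 in turn, and 6428 in the input, with Fos the most abundant in each. The r of Hes1 with the mean of the list was 0.84 by total counts and 0.67 with TMM factors (n = 7). Hes1 also had an r of 0.90 with the pericyte and smooth muscle list. The part of either in the level of Hes1 was not tested. The genes most like Hes1 were Safb, which encodes a nuclear scaffold protein, at r = 0.996, Prkrir at 0.994 and E130114P18Rik at 0.991. They were the highest of 7461 candidates searched over 7 libraries, so a high r follows in part from the search. The same holds for the genes named as most like the other listed genes.

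Hey1 (ENSMUSG00000040289, chr3:8663359-8667256, minus strand), a target known in vessel walls and in osteoblast precursors, stood at 6.87, 3.01, 2.40, 6.85, 3.25, 1.59 and 4.05 RPKM in clusters 1 to 7 in turn, and 8.63 in the input. By total counts clusters 1 and 4 were highest among the sorted libraries and did not differ beyond counting error, cluster 7 followed, and cluster 6 was lowest. The ratio of cluster 1 to cluster 6 was 4.33 (3.63 to 5.19). With TMM factors the highest sorted library was cluster 4 at 7.02 RPKM, above cluster 1 by 1.13-fold (1.01 to 1.26). Under that scaling cluster 5 at 4.39 passed cluster 7 at 3.91, and the input fell from 8.63 to 5.40, below clusters 1 and 4.

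Over the sorted libraries Hey1 was correlated with pericyte and smooth muscle genes and inversely with osteoblast genes. Of the 10 pericyte and smooth muscle markers, 9 had a positive r with Hey1 and 5 an r above 0.8. Its r with the mean log level of these 10 markers was 0.90 (0.87 with TMM factors), against 0.60 (0.54) for Heyl, and with the mean of 7 osteoblast markers it was -0.97 (-0.90 with TMM factors), over 7 libraries. Other listed genes shared this pattern: with the osteoblast list r was -0.94 for Jag1, -0.81 for Hes1 and -0.71 for both Notch4 and Heyl, and with the pericyte list it was 0.83 for Jag1. The osteoblast list summed to 686, 6491, 24728, 1160, 8738, 22822 and 1509 RPKM in clusters 1 to 7 in turn, its most abundant member being Bglap, which encodes osteocalcin, or in clusters 4 and 7 Ibsp. The input, at 236 RPKM, was lowest. The pericyte list summed to 117, 84.2, 48.4, 77.5, 35.1, 55.4 and 120 RPKM in clusters 1 to 7 in turn, and 40.6 in the input; its most abundant gene was Acta2 in 5 libraries, Cspg4 in clusters 2 and 6 and Rgs5 in cluster 3, and no marker on either list was at 0. These sums did not follow Hey1, since cluster 2 lay above cluster 4 and the input, highest in Hey1 by total counts though not with TMM factors, was among the lowest. Which cells carried Hey1 was not tested. The genes most like Hey1 were Aoc3, the vascular adhesion protein 1 gene of smooth muscle and fat, at r = 0.99, Gstt2 at 0.98 and Cbx6 at 0.98.

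Heyl (ENSMUSG00000032744, chr4:123233556-123249875, plus strand), a target known from vascular smooth muscle, stood at 1.70, 0.880, 0.166, 2.44, 1.28, 1.05 and 1.72 RPKM in clusters 1 to 7 in turn, and 0.155 in the input. Cluster 4 was highest by either scaling, at 1.42-fold (1.22 to 1.66) over cluster 7, and cluster 3 and the input were far below the rest. The ratio of cluster 4 to cluster 3 was 14.7 (9.66 to 23.5), on 406 and 23 counts, and its interval overlaps those of Dll4 and Jag2; with TMM factors it was 14.8, and that of Dll4 was 15.6. The input value, on 16 counts, was below the median of the olfactory receptor genes there. The genes most like Heyl were Rgs16, a regulator of G protein signalling, at r = 0.97, the chemokine gene Cxcl14 at 0.95 and Bmper, a modulator of bone morphogenetic proteins, at 0.95.

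The balance of the targets thus differed between libraries in ways that scaling does not touch. Hey1 exceeded Heyl by 14.4-fold in cluster 3, and by 1.51-fold in cluster 6 to 4.03-fold in cluster 1 in the other sorted libraries. No ratio is read for the input, where Heyl was not above the olfactory receptor background. Hes1 exceeded Hey1 by 24.5-fold in cluster 3, and by 8.88-fold in cluster 4 and 5.43-fold in the input at the low end. Hes1 and Hey1 were correlated at r = 0.79 (0.71 with TMM factors), Jag1 and Hey1 at 0.88 (0.81), and Notch1 and Heyl at 0.84 (0.84), while Dll4 had an r of -0.49 with Notch1 and -0.46 with Heyl. These values describe 7 libraries that share their depth and composition. The genes most like the remaining members were Smoc2 (r = 0.998), Dab2 (0.98) and Litaf (0.97) for Notch1, Crkl (0.99), Tap2 (0.98) and Galnt10 (0.98) for Notch2, and Adcy4 (0.99), Zfp772 (0.98) and Atp8b1 (0.98) for Jag1.

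Set against all genes, the listed genes did not stand out in how much they varied. A gene was counted as variable when it passed 2 RPKM in at least 1 sorted library and its highest RPKM + 1 was more than 2-fold its lowest. Of the 7 listed genes that passed 2 RPKM, 6 were variable, beside 70.6% of the 12360 genes tested: Hes1 by 3.42-fold, Hey1 by 3.04-fold, Heyl by 2.95-fold, Dll4 by 2.74-fold, Jag1 by 2.15-fold and Notch2 by 2.14-fold. Notch1 spanned 1.84-fold, and Notch4, Jag2 and Dll1 did not reach 2 RPKM. Heyl passed 2 RPKM only in cluster 4 and Dll4 only in cluster 5, the highest library of each. Both were therefore counted only through the library where they were high. The median span in log2(RPKM + 1) was 1.45 over the 7 genes and 1.26 over all genes tested. With TMM factors Jag1 fell to 1.85-fold, and 5 of 7 were variable beside 56.8% of all genes. Without the counts of Rn18s-rs5, Lars2 and mmu-mir-689-2 it was Notch2 that no longer passed, with a span of 0.98 in log2(RPKM + 1), and 5 of 7 were variable beside 59.4%. No listed gene was more than 2-fold above each other sorted library in RPKM + 1, a property of 5.4% of all genes.

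The highest sorted library of the 10 genes was cluster 1 for Notch4, Jag1, Hes1 and Hey1, cluster 7 for Notch2, Jag2 and Dll1, cluster 4 for Notch1 and Heyl, and cluster 5 for Dll4. Over the 12360 genes above 2 RPKM, which do not include Notch4, Jag2 and Dll1, cluster 7 was the highest library for 25.3%, cluster 1 for 21.3%, cluster 4 for 8.95% and cluster 5 for 4.73%. The lowest library was cluster 6 for Notch4, Jag1, Hes1 and Hey1, cluster 2 for Jag2 and Dll1, cluster 3 for Notch1 and Heyl, cluster 4 for Dll4 and cluster 5 for Notch2. Among the same genes cluster 5 was the lowest library of 46.3% and cluster 6 of 25.5%, while clusters 3, 2 and 4 were lowest for 8.11%, 7.25% and 4.4%. Under TMM scaling the highest library was cluster 4 for 4 genes, Notch2 and Hey1 having moved there, beside 10.4% of the genes above 2 RPKM, and the lowest was cluster 2 for 5 genes, beside 16.4%, so those places depended on the scaling.

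The input was compared with the median of the sorted libraries in log2(RPKM + 1). Hey1 was higher in the input by 1.18 on the log2 scale, the only listed gene past 2-fold, beside 43% of 19088 genes. Notch1 lay just inside that limit at 0.99. The share of 43% includes genes that passed 2 RPKM only in the input. It was 9.83% with RPKM above 2 required in all 7 sorted libraries. Neither Hey1, at 1.59 RPKM in cluster 6, nor Notch1, at 0.783 in cluster 3, passed that filter, so neither can be set against that share. No listed gene was lower by more than 2-fold, beside 2.89% of genes, although Heyl, at -0.98, and Jag1, at -0.75, came nearest. With TMM factors these differences were 0.38 for Hey1, 0.34 for Notch1, -1.21 for Heyl and -1.32 for Jag1, so that Hey1 no longer passed 2-fold and Jag1 and Heyl did, beside 24.6% of genes higher and 9.68% lower.

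Of the other Notch pathway genes, 46 were listed by role, 33 passed 2 RPKM in a sorted library and 21 of these were variable, beside 70.6% of all genes; with TMM factors 15 of 33 were, beside 56.8%. The count rested in part on cluster 5: without that library 12 of 33 were variable, beside 52.1% of all genes, and without the counts of Rn18s-rs5, Lars2 and mmu-mir-689-2 it was 13 of 34, beside 59.4%. Their median span in log2(RPKM + 1) was 1.15, a little under that of all genes. No pathway gene was more than 2-fold above each other sorted library, a property of only 5.4% of all genes. In the input, Aph1a, a gamma-secretase subunit gene, Neurl1b, a ubiquitin ligase gene, and Cntn1, a ligand-like adhesion gene, were more than 2-fold higher than the sorted median. These were 3 of 37 pathway genes tested, beside 43% of all genes, and none was lower, beside 2.89%. Neurl1b and Cntn1 passed 2 RPKM only in the input, so their calls follow in part from the filter. With TMM factors Aph1a was at 0.44 on the log2 scale, and Neurl1b, at 1.15, and Cntn1, at 1.14, were still more than 2-fold higher but no longer passed 2 RPKM. None of the 33 genes tested then counted as higher, beside 24.6% of all genes. Under that scaling 3 were lower, among them Furin, at -1.38, and Numbl, at -1.05, beside 9.68% of all genes.

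Notch3, the receptor of vascular smooth muscle, stood at 1.53, 0.461, 0.220, 1.71, 0.862, 0.353 and 1.38 RPKM in clusters 1 to 7 in turn, and 1.86 in the input. It was highest in cluster 4 and lowest in cluster 3 of the sorted libraries, as Heyl was, with an r of 0.91 with both Heyl and Hey1, pairs chosen after their values were seen.

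All 3 of the ligand-like genes that passed 2 RPKM were variable by either scaling, beside 70.6% of all genes by total counts and 56.8% with TMM factors. Dlk1, which encodes a membrane protein of the Delta family that lacks the receptor-binding domain of the classical ligands, stood at 8.82 RPKM in cluster 4, 7.64 in cluster 5 and 4.24 in cluster 7, and at 0.228 to 1.39 in the other sorted libraries and 1.83 in the input. With TMM factors Dlk1 was highest in cluster 5 instead of cluster 4. Its close relative Dlk2 showed another order, with 5.30 RPKM in cluster 2, 2.17 in cluster 6 and no more than 0.367 in the other 5 sorted libraries. Their spans were 7.99-fold and 6.08-fold in RPKM + 1, the widest of all the pathway genes listed. Dlk1 passed 2 RPKM only in clusters 4, 5 and 7, and Dlk2 only in clusters 2 and 6. Both were therefore counted only through libraries where they were high. Egfl7, an endothelial secreted gene, spanned 2.91-fold, was highest in cluster 5 and lowest in cluster 6, and had an r of 0.81 with Dll4. Dll3 had at most 4 counts in a sorted library.

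Genes for the cutting of the receptor differed in level: Aph1c, for example, stood at 0.564 to 1.17 RPKM in the sorted libraries and Ncstn at 8.66 to 36.7. Furin, whose protease matures Notch on its way to the surface, was variable by 3.51-fold, with 11.7 RPKM in cluster 6 and 2.61 in cluster 5. Adam10 and Adam17, the sheddase genes, spanned 2.40-fold and 2.18-fold. Of 6 gamma-secretase genes above 2 RPKM, 5 were variable by total counts and 2 with TMM factors, beside 70.6% and 56.8% of all genes. Ncstn, the gene of the subunit nicastrin, spanned 3.90-fold. Ncstn was highest in cluster 3, at 36.7 RPKM, and lowest in cluster 2, at 8.66.

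None of the 5 genes of the nuclear complex and its corepressors that passed 2 RPKM was variable by either scaling, beside 70.6% of all genes by total counts and 56.8% with TMM factors. Rbpj, which encodes the DNA-binding partner of the Notch intracellular domain, stood at 5.41, 3.46, 4.63, 2.76, 3.05, 2.64 and 4.44 RPKM in clusters 1 to 7 in turn, and 3.85 in the input. Spen, a corepressor gene, had the smallest span. Since the groups were not tested against each other, no difference between the nuclear and the other roles is claimed.

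Of 5 genes for sugars on the receptor, 3 were variable by total counts, beside 70.6% of all genes, and 2 with TMM factors, beside 56.8%. Lfng, one of the Fringe glycosyltransferase genes, was highest in cluster 6 at 3.53 RPKM, and Mfng, another, was highest in cluster 7 at 2.17, while Rfng was the most abundant at 7.98 to 14.5 RPKM and not variable. Of 10 ubiquitin ligase, adaptor and regulator genes above 2 RPKM, 6 were variable, beside 70.6% of all genes, and 4 with TMM factors, beside 56.8%, among them Numbl at 2.93-fold, Dtx4 at 2.88-fold and Numb, an inhibitor of Notch, at 2.69-fold. Of the other targets, Hes6 alone passed 2 RPKM and spanned 2.53-fold, from 5.13 RPKM in cluster 5 to 14.5 in cluster 3, while Hes5, Hes7, Hey2 and Nrarp, a feedback inhibitor of Notch, reached at most 0.586 RPKM in a sorted library.

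**Figure D4:**
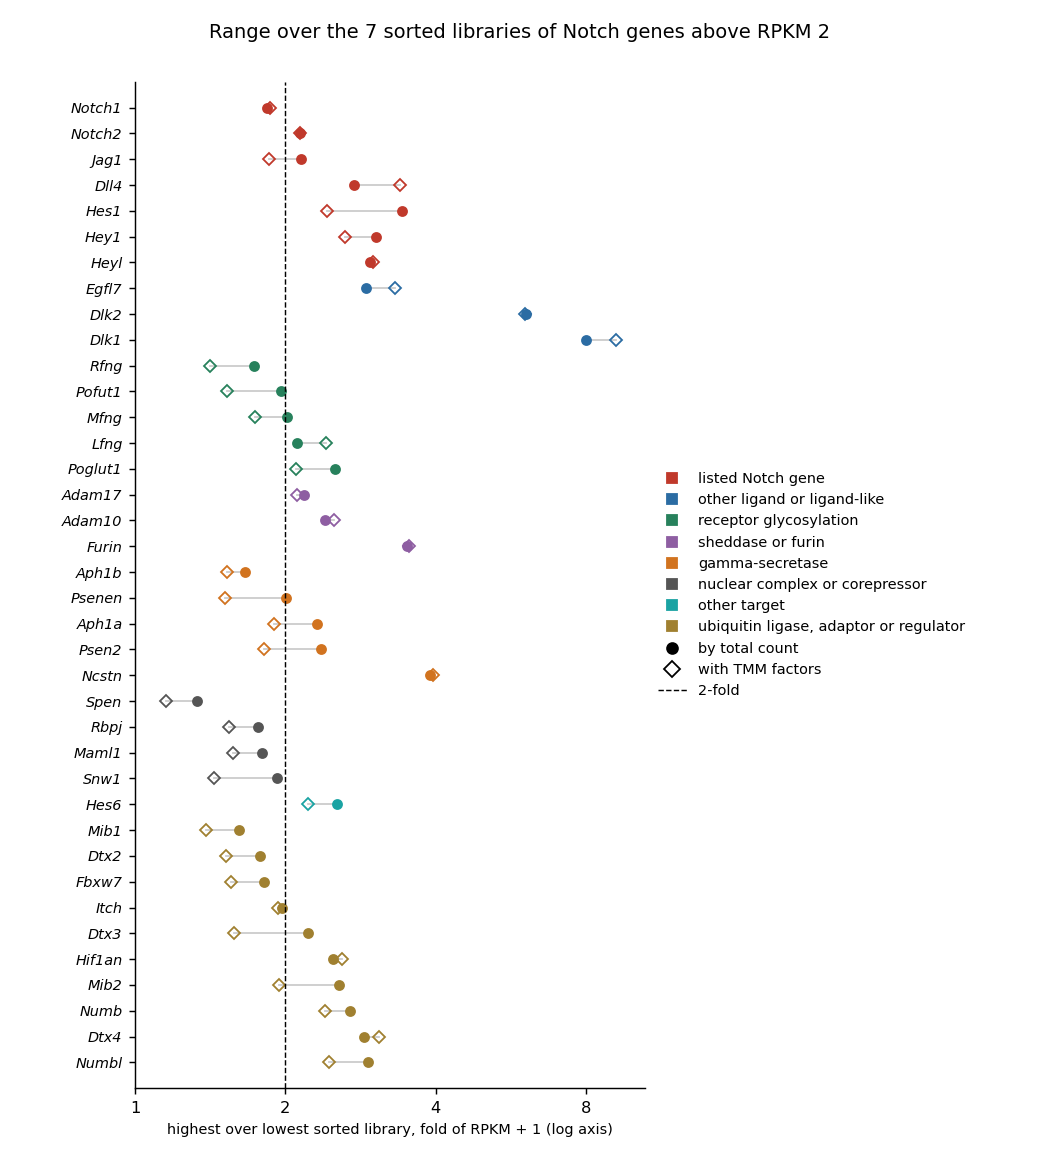
Ratio of the highest to the lowest of the 7 sorted libraries in RPKM + 1 (horizontal axis, logarithmic) for the 7 listed Notch genes and other pathway genes that passed 2 RPKM, coloured by role. Circles are by total count and diamonds with TMM factors, and the dashed line marks 2-fold, which no gene of the nuclear complex passes; Dlk1 is the widest at 7.99.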

How the data were processed

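The deposited files held gene counts, with exon coordinates and summed exon length, made by the authors from paired-end poly(A) RNA-seq. The submitters' processing notes name Partek (2.2), TopHat2 and mm9, but the coordinates in the files are those of GRCm38; the counting tool and its use of strand were not given in the sources used here. The labels describe RNA from crushed marrow whereas the study's methods describe sorted cells. Symbols were matched by gene ID for 32464 of 49315 genes and all 10 listed. RPKM was computed from counts, the library total and the exon length (the Length column deposited by the authors, in bases). TMM factors (edgeR 4.0.16) and DESeq2 1.42.0 size factors were computed over the 8 libraries. Intervals came from scipy 1.17.1. A gene was tested if above RPKM 2 in a sorted library (or the input, for the input comparison), and called past 2-fold on RPKM + 1. Likeness was Pearson r of log2(RPKM + 1) among genes so called with at least 50 counts, the top 3 being named; pathway genes named are extremes of their role. No test was possible with 1 library per group. The procedure was tested on simulated data. Members and lists were chosen with earlier results of these data known. Of the pathway genes counted, 2 are not reported here by themselves.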

Additional observations from a re-analysis of the deposited data

How the results depend on the processing

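Against the main count of 6 of 7 listed genes variable among the sorted libraries, 3 of the 3 still tested were variable when RPKM above 2 was required in all 7 libraries (68.8% of all genes). The number more than 2-fold higher in the input was 1 in the main setting, Hey1. It was 0 with TMM factors (24.6% of all genes tested), with DESeq2 size factors (24.9%) and without Rn18s-rs5, Lars2 and mmu-mir-689-2 (40.8%). It was also 0 with RPKM above 2 in all 7 (9.83%), but there Hey1 was not tested. It was 2 with a pseudocount of 0.1 (49.1%) or without cluster 1 (44.6%). The number lower in the input, 0 in the main setting, was 2 with TMM factors (9.68%) or DESeq2 size factors (9.26%) and 1 without those 3 loci (3.41%), at equal depth (2.96%), with a pseudocount of 0.1 (4.55%), without cluster 5 (3.2%) or without cluster 6 (3.12%). The number of variable pathway genes, 21 of 33, was 13 of 34 without those 3 loci (59.4% of all genes), 12 of 19 with RPKM above 2 in all 7 (68.8%) and 12 of 33 without cluster 5 (52.1%). No called difference changed direction, but the input minus the sorted median, in log2(RPKM + 1), changed sign for Notch2 from 0.14 to -0.43 with TMM factors and -0.38 with DESeq2 size factors, and for Dll1 from -0.11 to 0.03 at equal depth. Of 120 alternative values for single genes, 74 stayed within the counting interval of the main value. Leaving out cluster 1 or cluster 6 was chosen after seeing the data. No paired analysis was possible because there was 1 library for every group. Differences between sorts of one population were not measured.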

Other observations

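A further 4 genes that Notch signalling can induce, or that belong to the same helix-loop-helix class, were read beside the listed targets. Myc, a growth regulator, stood at 120, 55.7, 107, 162, 44.9, 57.7 and 174 RPKM in clusters 1 to 7 in turn, and 116 in the input, a span of 3.82-fold among the sorted libraries and 2.97-fold with TMM factors. Its highest libraries, clusters 7 and 4, were also the highest for Notch1 and Notch2. The summed immediate early list was likewise high there, at 6890 RPKM in cluster 7 and 6089 in cluster 4, and also in cluster 1, at 6818. The part of Notch signalling in the level of Myc was not tested. Bhlhe40 ranged from 77.7 RPKM in cluster 5 to 224 in cluster 3, Id1 from 47.1 in cluster 5 to 107 in cluster 2, and the cyclin D1 gene Ccnd1 from 1.70 in cluster 6 to 5.26 in cluster 2. With TMM factors the spans of Id1 (1.82-fold) and Ccnd1 (1.97-fold) no longer passed 2-fold. Of all genes tested, 70.6% passed 2-fold by total counts and 56.8% with TMM factors.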
